A study of Mus musculus with 94 samples.

Results

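HAL1 elements, the half-L1 copies of the genome, were followed in brain RNA of trisomic Ts65Dn mice (TS) and their wild-type littermates (WT), in cortex and in hippocampus. They were taken from a table of reads counted on single L1 elements by name, as every element whose name starts with HAL1, with HAL1_SS_dup70 left out. The rule gave 3168 elements of 430083 in the table, and 5 subfamilies, which are the names before the copy number: 1934 copies of HAL1, 466 of HAL1ME, 383 of HAL1M8, 353 of HAL1b and 32 of HAL1_SS. MusHAL1, with 1453 copies, does not start with HAL1 and is given only for comparison. Positions, lengths and sequences of the elements were not used here, so that counts of different elements are not levels per length and no statement is made on which chromosome, gene or strand a copy lies in.

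L1 is the long interspersed retrotransposon that still moves in mice. It copies itself through an RNA, which is bound by the protein of its first reading frame and reverse transcribed by the enzyme of its second. A half-L1 keeps the part of L1 that encodes the RNA-binding protein and lacks the part that encodes the reverse transcriptase, so that it had to borrow the enzyme of L1 to spread, and most HAL1 copies are old and degraded. RNA counted on such a copy can come from a longer transcript that runs through it, for example an intron, and total RNA without selection for poly(A), as here, contains unspliced RNA.

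The 94 libraries were of stranded total RNA depleted of ribosomal RNA, 48 from cortex and 46 from hippocampus, from 48 male mice, 46 of which gave both tissues. Ts65Dn mice carry an extra chromosome with parts of MMU16 and MMU17 and are a model of Down syndrome. All mice came from the same breeding, of B6EiC4Sn.BLiA-Ts(1716)65Dn/DnJ females, which carry the extra chromosome, and B6C3F1/OlaHsd hybrid males, and WT mice had no extra chromosome. Treated mice (-t) drank water with lamivudine, an inhibitor of reverse transcriptase, at 3 mg/kg for 4 months, and non-treated mice (-nt) drank water without it. There were 9 cortex and 8 hippocampus libraries of WT-nt, 17 and 17 of WT-t, 9 and 8 of TS-nt, and 13 and 13 of TS-t mice. Each library carries the label of 1 animal, although the methods of the study also speak of samples pooled before the RNA was measured, in which case the spread given here is that between pools. All non-treated mice have a label that starts with 20, against 3 of 17 WT-t and 8 of 13 TS-t mice, so that treatment and this label could be separated only in part.

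Between 178454 and 1165192 reads per library were counted on L1 elements, with medians of 323416 in cortex and 259745 in hippocampus. HAL1 elements took 1576 to 7396 of them per cortex library and 2486 to 5752 per hippocampus library. In cortex 8 libraries stood apart on the first principal component of all tested elements: 4 of WT-t, 2 of TS-t and 1 each of WT-nt and TS-nt. Their HAL1 share had a lower median, 0.735% of L1 counts (0.372% to 1.55%) against 1.24% (0.792% to 1.56%) in the other 40 cortex libraries, although 2 of the 8, of TS-nt mouse 23 and WT-t mouse 47, lay above the latter median. Cortex shares of all HAL1 elements and of HAL1, HAL1ME and HAL1b, element numbers at equal depth and some of the tests are also given without these 8. The library of WT-t mouse 1 had counts on only 20 HAL1 elements and 3168 L1 elements in all, and 24.2% of its L1 counts lay on 1 element. No hippocampus library stood apart by the same measure. The table holds no genes, so that tissue and cell markers were not checked.

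HAL1 RNA was concentrated in a few copies. Over all libraries the 3168 elements held 357080 counts, 1.24% of all L1 counts, and 3 elements held more than 50% of them. HAL1_dup2781 alone had 131004 counts, 36.7% of the HAL1 total, and HAL1ME_dup301 had 28137 and HAL1b_dup392 27398. The first 10 elements held 66.5%. For comparison, the first 10 held 23.7% of the counts of MusHAL1, 27.4% of the older L1M elements, 12.1% of Lx and 12.0% of L1Md, the group with the youngest mouse L1s. These sets differ in size, with 113773, 140286 and 91563 elements in L1M, Lx and L1Md, so that the shares are given as a description.

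At the other end, most HAL1 copies were counted rarely. No count was seen on 61 elements in any library, 1208 had between 1 and 9 counts over the 94 libraries and 252 had at least 100. A HAL1 element had a count in a median of 5 libraries. Only 7 elements had one in all 94 libraries, 4 of HAL1, 2 of HAL1b and 1 of HAL1ME, and 694 had one in a single library. Some count was nevertheless seen on 98.1% of HAL1 elements, close to the 98.5% of L1M and above the 95.4% of Lx, the 83.1% of MusHAL1 and the 76.2% of L1Md.

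The subfamilies differed in how their counts were spread over copies. In HAL1, 54.6% of 240083 counts lay on HAL1_dup2781, and the next element, HAL1_dup1049, held 5.45%. The picture was alike in HAL1ME, where HAL1ME_dup301 held 51.3% of 54897 counts and HAL1ME_dup104 14.6%, and in HAL1b, where HAL1b_dup392 held 60.7% of 45145 counts and HAL1b_dup208 18.5%. HAL1M8 had no such element: its 16499 counts were spread over 382 of its 383 copies, HAL1M8_dup600 held 9.64% and HAL1M8_dup87 6.12%. The HAL1_SS elements kept here had few counts, 456 on 31 elements, 161 of them on HAL1_SS_dup65. Their share of a library was at most 0.00520% in cortex and 0.00578% in hippocampus. Counts of HAL1_SS_dup70 are not in these values, so they do not give the level of the whole subfamily.

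The share of all L1 counts that fell on HAL1 elements overlapped between the 4 groups of each tissue. The cortex means were 1.18% ± 0.317 (SD, n = 9) in WT-nt, 1.15% ± 0.266 (n = 17) in WT-t, 1.34% ± 0.182 (n = 9) in TS-nt and 1.13% ± 0.295 (n = 13) in TS-t mice. The WT-nt libraries ran from 0.372% over a median of 1.23% to 1.43%, those of WT-t from 0.491% over 1.21% to 1.49%, those of TS-nt from 0.969% over 1.33% to 1.55% and those of TS-t from 0.607% over 1.17% to 1.56%. The differences between their means were smaller than the largest SD, that of WT-nt. That SD came with 1 library, of WT-nt mouse 24, and was 0.101 without it (n = 8). Without the 8 libraries that stood apart, the means were 1.28%, 1.24%, 1.31% and 1.21% in the same order.

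In hippocampus the mean share was 1.43% ± 0.165 (n = 8) in WT-nt, 1.41% ± 0.232 (n = 17) in WT-t, 1.44% ± 0.384 (n = 8) in TS-nt and 1.38% ± 0.334 (n = 13) in TS-t mice. The lowest, median and highest libraries were at 1.30%, 1.37% and 1.81% in WT-nt, at 1.06%, 1.37% and 1.94% in WT-t, at 1.12%, 1.32% and 2.25% in TS-nt and at 0.924%, 1.38% and 1.92% in TS-t. The groups overlapped here too. Without the TS-nt library at 2.25%, of mouse 23, the TS-nt mean was 1.32%. Of the 46 mice with both tissues, 36 had the larger HAL1 share in hippocampus, and without HAL1_dup2781 in the sum 30 had.

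**Figure D1:**
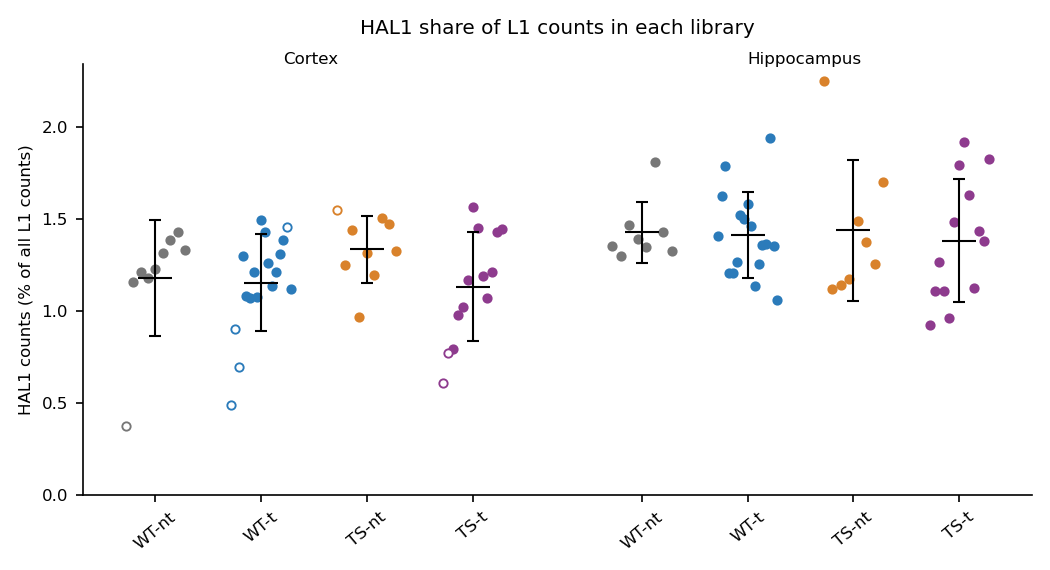
Counts on HAL1 elements as a percentage of all L1 counts (y axis) in each library, by tissue and group (x axis). Points are libraries, open points the 8 cortex libraries that stood apart on the first principal component, and black bars the mean with SD. The 4 groups of a tissue overlap, and the hippocampus means (1.38% to 1.44%) lie above those of cortex (1.13% to 1.34%).

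How many HAL1 elements a library showed depended on its depth, so each library was thinned to the 178454 L1 counts of the shallowest one, by the exact expectation of drawing without replacement. At that depth a mean of 330 ± 92.5 HAL1 elements (SD, n = 9) had a count in cortex of WT-nt, 288 ± 112 (n = 17) of WT-t, 331 ± 122 (n = 9) of TS-nt and 322 ± 82.7 (n = 13) of TS-t mice. The hippocampus values were lower, at 263 ± 66.3 (n = 8), 266 ± 56.5 (n = 17), 252 ± 109 (n = 8) and 269 ± 74.8 (n = 13). All L1 elements gave the same order between tissues, with medians of 41220 elements per cortex library and 33051 per hippocampus library. TS-nt mouse 27 lay above the rest of its group in both tissues, with 628 HAL1 elements in cortex and 488 in hippocampus, and without it the TS-nt means were 294 and 219. Without the 8 libraries that stood apart, the cortex means were 354 ± 64.1 in WT-nt (n = 8), 339 ± 56.3 in WT-t (n = 13), 349 ± 117 in TS-nt (n = 8) and 339 ± 77.1 in TS-t mice (n = 11).

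By subfamily, HAL1 held the largest share of L1 counts in every group. Its cortex share had group means of 0.781% ± 0.232 in WT-nt, 0.753% ± 0.194 in WT-t, 0.872% ± 0.147 in TS-nt and 0.751% ± 0.232 in TS-t (SD, n = 9, 17, 9 and 13), and without the 8 libraries that stood apart the means were 0.850%, 0.805%, 0.855% and 0.807% in that order. In hippocampus these were 1.01% ± 0.152, 0.979% ± 0.203, 1.02% ± 0.387 and 0.950% ± 0.278 (n = 8, 17, 8 and 13). Single cortex libraries ran from 0.227% to 1.11% and single hippocampus libraries from 0.616% to 1.87%, so that the ranges of the tissues overlapped. Of the counts on all HAL1 elements of a library, the other subfamilies included, HAL1_dup2781 made up a median of 32.2% in cortex, from 5.74% to 48.2%, and 39.1% in hippocampus, from 23.9% to 66.9%.

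HAL1ME, the subfamily with the second most counts, had its highest cortex mean in TS-nt mice. Its share ran from 0.0602% over a median of 0.192% to 0.246% in WT-nt, from 0.0623% over 0.190% to 0.263% in WT-t, from 0.153% over 0.246% to 0.274% in TS-nt and from 0.105% over 0.190% to 0.226% in TS-t cortex. The TS-nt mean of 0.233% ± 0.0367 was the highest and those of WT-nt, WT-t and TS-t lay between 0.183% and 0.186%, with overlap in every pair. Without the 8 libraries that stood apart, the means were 0.201% in WT-nt, 0.187% in WT-t, 0.230% in TS-nt and 0.194% in TS-t cortex, so that TS-nt lay less far above WT-nt. In hippocampus the group means were between 0.192% ± 0.0175 in WT-nt and 0.209% ± 0.0229 in WT-t, with TS-nt at 0.208% ± 0.0157.

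HAL1b and HAL1M8 were lower, and their groups overlapped too. The HAL1b means were between 0.136% ± 0.0431 in TS-t and 0.171% ± 0.0369 in TS-nt cortex and between 0.159% ± 0.0257 in TS-nt and 0.174% ± 0.109 in TS-t hippocampus. Without the 8 cortex libraries that stood apart, the cortex means of HAL1b were between 0.148% in TS-t and 0.178% in WT-t. The large SD of TS-t in hippocampus came with 1 library, of TS-t mouse 46, at 0.510% (95% Wilson interval 0.485% to 0.535%, counting error only), where HAL1b_dup392 alone had 1380 counts against a group median of 224, and without that library the mean was 0.146% ± 0.0421 (n = 12). The cortex of the same mouse was at 0.190%. HAL1M8 medians were between 0.0561% in TS-nt and 0.0610% in TS-t cortex and between 0.0511% in TS-nt and 0.0579% in TS-t hippocampus, and single libraries lay between 0.0137% and 0.0893%.

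**Figure D2:**
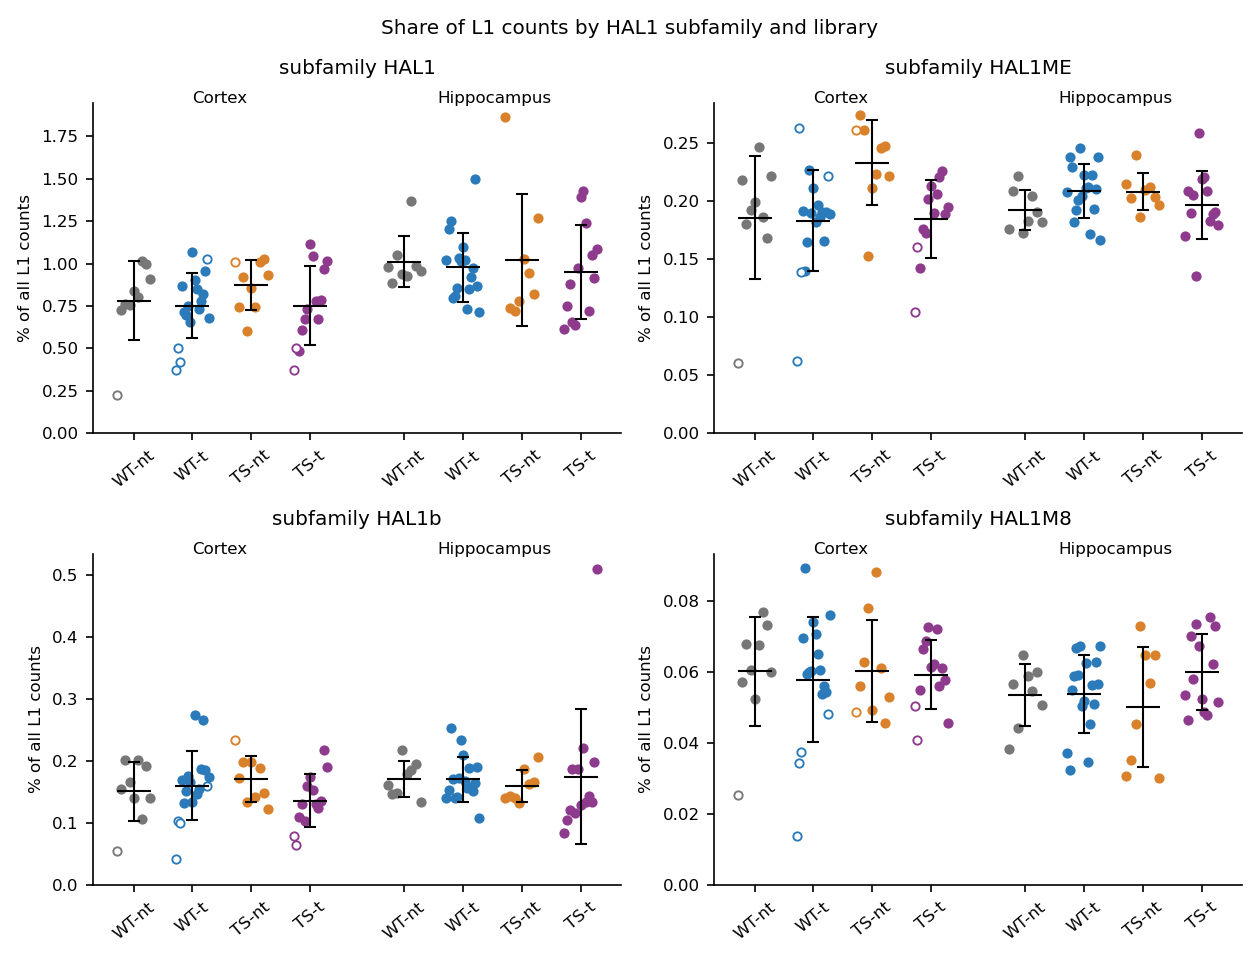
Share of all L1 counts (y axis, percent) held by subfamilies HAL1, HAL1ME, HAL1b and HAL1M8 in each library, by tissue and group. Points, open points and black bars are as in the plot of all HAL1 elements. Groups overlap in all 4 subfamilies, the 1 hippocampus library at 0.510% for HAL1b is from TS-t mouse 46, and the y axes differ between panels.

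Differences between groups were tested with edgeR's quasi-likelihood test on all elements or subfamilies of a tissue, with p-values adjusted over all of them by the Benjamini-Hochberg method and called below 0.1. A filter on low counts (10 counts at the median depth, in at least the number of libraries of the smallest group) left 25 HAL1 elements of 5416 elements in cortex and 24 of 4238 in hippocampus, 23 of them the same. They held 67.7% of the HAL1 counts in cortex and 75.5% in hippocampus, and the other 3143 and 3144 elements were not tested one by one. Of the subfamilies, HAL1, HAL1ME, HAL1b and HAL1M8 passed, among 132 in cortex and 131 in hippocampus. HAL1_SS, summed without HAL1_SS_dup70, did not. Fold changes are given on the log2 scale with their SE. The absence of calls that follows depended on this filter. When every element with 10 counts in cortex was tested, a comparison called 101 to 278 of 1486 HAL1 elements. This was 6.80% to 18.7% of them, against 6.86% to 25.0% of all elements. In hippocampus 141 to 181 of 1151 were called, 12.3% to 15.7%, against 10.6% to 14.5% of all elements. The HAL1 elements added had a median of 25 counts over the 48 cortex libraries and 21 over the 46 of hippocampus, and were at 0 in a median of 40 and 39 of them.

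The first question was whether trisomy alone came with a change, in TS-nt against WT-nt mice. No HAL1 element and no HAL1 subfamily passed in either tissue, and few others did: 0% of elements and 0% of subfamilies in cortex, and 0.0708% of elements (3 of 4238) and 0% of subfamilies in hippocampus. Without adjustment, 0 of 25 HAL1 elements in cortex and 1 of 24 in hippocampus had an edgeR p under 0.05. Over the 6 comparisons of each tissue given here and below this number was at most 1 for cortex elements, 2 for hippocampus elements, 1 for cortex subfamilies and 0 for hippocampus subfamilies, and DESeq2 called none either. The median log2 fold change of the tested HAL1 elements was 0.13 in cortex, against 0.07 over all 5416 elements, and -0.06 in hippocampus against -0.03. In cortex the medians of L1M (0.16) and MusHAL1 (0.18) were above that of HAL1, and those of Lx (0.02) and L1Md (0.03) below it.

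HAL1ME was the subfamily nearest to a call. In cortex it was at a log2 fold change of 0.32 ± 0.15 (95% interval 0.02 to 0.62, unadjusted p = 0.0351, edgeR adjusted p = 0.220) and in hippocampus at 0.10 ± 0.09 (-0.08 to 0.28, adjusted p = 0.748). Its most abundant copy, HAL1ME_dup301, was at 0.37 ± 0.28 in cortex (adjusted p = 0.999) and 0.05 ± 0.15 in hippocampus. The intervals of HAL1, HAL1b and HAL1M8 all held 0, with 0.15 ± 0.16, 0.17 ± 0.19 and -0.02 ± 0.15 in cortex and with -0.11 ± 0.22 for HAL1b and -0.10 ± 0.15 for HAL1M8 in hippocampus, where HAL1 had an interval of -0.36 to 0.36. Without the 8 cortex libraries that stood apart, HAL1ME was at 0.19 ± 0.09 in cortex (edgeR adjusted p = 0.438), HAL1 at 0.0076 ± 0.13 and HAL1b at -0.0011 ± 0.15. Whether the tissues differ in this contrast was not tested.

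The second question was the effect of lamivudine. Treatment of trisomic mice, TS-t against TS-nt, gave no HAL1 call either. Background calls were 0% of elements in both tissues, 0% of subfamilies in cortex and 0.763% of subfamilies in hippocampus (1 of 131). In cortex HAL1ME was at -0.30 ± 0.14 (95% interval -0.57 to -0.02, unadjusted p = 0.0344, edgeR adjusted p = 0.721), HAL1b at -0.30 ± 0.17, HAL1 at -0.19 ± 0.15 and HAL1M8 at 0.02 ± 0.14, and without the 8 libraries that stood apart HAL1ME was at -0.22 ± 0.09 (adjusted p = 0.494), HAL1b at -0.12 ± 0.14 and HAL1 at -0.07 ± 0.12. In hippocampus HAL1M8 was at 0.25 ± 0.14 (-0.03 to 0.52, adjusted p = 0.636), with its copy HAL1M8_dup600 at 0.97 ± 0.34 (unadjusted p = 0.00587, adjusted p = 1.00). The TS-t and TS-nt values of each of these overlapped. The comparisons TS-nt against WT-nt and TS-t against TS-nt share the TS-nt libraries, so that opposite signs in them, as in HAL1ME, are not separate observations.

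Treated trisomic mice against non-treated wild-type mice, TS-t against WT-nt, showed the HAL1 subfamilies close to 0 in both tissues. The cortex log2 fold changes were -0.03 ± 0.15 for HAL1, 0.03 ± 0.14 for HAL1ME, -0.13 ± 0.17 for HAL1b and 0.01 ± 0.14 for HAL1M8. In hippocampus they were -0.11 ± 0.16, 0.02 ± 0.08, 0.01 ± 0.20 and 0.15 ± 0.14, and the interval for HAL1ME, -0.15 to 0.18, was the narrowest. No HAL1 element or subfamily was called, against 0% of elements and subfamilies in cortex and 0.0472% of elements (2 of 4238) and 0.763% of subfamilies (1 of 131) in hippocampus.

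Treatment of wild-type mice, WT-t against WT-nt, gave no call at all, with 0% of elements and subfamilies called in both tissues. The 4 subfamilies ran from -0.03 to 0.12 in cortex and from -0.06 to 0.10 in hippocampus. In TS-t against WT-t mice, again with 0% called in all 4 sets, they lay between -0.24 for HAL1b and 0.04 for HAL1M8 in cortex and between -0.09 for HAL1ME and 0.16 for HAL1M8 in hippocampus. The interaction, which asks whether lamivudine acted differently in the 2 genotypes, was not called for any subfamily or element of either tissue (0% called). It was -0.42 ± 0.24 for HAL1b and -0.33 ± 0.19 for HAL1ME in cortex, both with an edgeR adjusted p of 0.316, and -0.19 ± 0.11 for HAL1ME in hippocampus (adjusted p = 0.498). Without the 8 libraries that stood apart, the cortex values were -0.25 ± 0.20 for HAL1b and -0.12 ± 0.12 for HAL1ME.

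**Figure D3:**
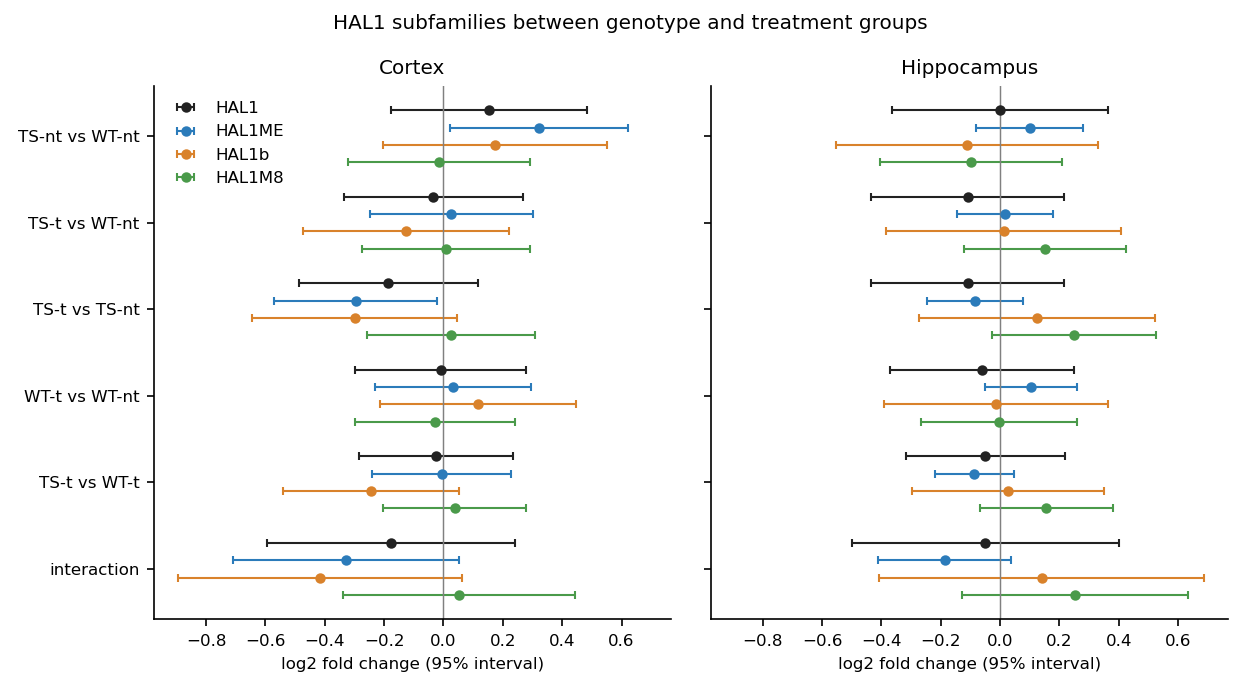
Log2 fold changes of the 4 tested HAL1 subfamilies (x axis) in 5 comparisons of groups and the interaction of treatment and genotype (y axis), in cortex (left) and hippocampus (right). Points are edgeR estimates and bars 95% intervals, not adjusted for the number of tests. In cortex the HAL1ME intervals of TS-nt vs WT-nt (0.02 to 0.62) and TS-t vs TS-nt (-0.57 to -0.02) leave out 0, all others hold it, and no adjusted p is below 0.1.

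Single HAL1 elements varied more between mice than subfamily sums. The biological coefficient of variation (the spread between libraries of a group beyond counting error, as a share of the mean) had a median of 0.684 over the 25 elements in cortex and 0.511 over the 24 in hippocampus, against 0.230 and 0.217 over the 4 subfamilies. It was 0.228 for HAL1ME_dup301 in hippocampus, the lowest, and 1.28 for HAL1ME_dup792 in cortex, the highest, which had no count in 14 of 48 cortex libraries and up to 124 counts in others. The median SE of a log2 fold change of TS-nt against WT-nt was 0.52 in cortex and 0.41 in hippocampus. Values below are CPM, the counts scaled to a common total of counts on tested elements, after TMM normalization over the 94 libraries.

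HAL1_dup3024 had the smallest p of the HAL1 elements in 3 comparisons with TS-t mice. Its cortex CPM ran from 189 over a median of 387 to 829 in WT-nt, from 216 over 377 to 1221 in WT-t, from 202 over 444 to 968 in TS-nt and from 232 over 574 to 1793 in TS-t. In hippocampus it ran from 166 over 274 to 837, from 221 over 383 to 614, from 293 over 475 to 695 and from 143 over 428 to 1072 in the same order. The medians of trisomic mice lay above those of wild-type mice in both tissues, and all groups overlapped. TS-t against WT-nt it was at 0.62 ± 0.31 in cortex (unadjusted p = 0.0485) and 0.63 ± 0.27 in hippocampus (unadjusted p = 0.0203), with edgeR adjusted p of 0.999 and 0.983, and TS-t against WT-t at 0.47 ± 0.26 and 0.43 ± 0.21.

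Other elements with the smallest p of a comparison were at low counts. In cortex HAL1_dup927 (TS-nt against WT-nt, 1.50 ± 0.76) had a median of 3 counts per WT-nt and 7 per TS-nt library. HAL1_dup3355 (TS-t against TS-nt, -1.41 ± 0.62, and the interaction, -1.39 ± 0.88) had medians of 15 counts in TS-nt and 5 in TS-t. HAL1ME_dup486 (WT-t against WT-nt, -0.85 ± 0.43) had medians of 16 counts in WT-nt and 11 in WT-t, and HAL1ME_dup395 (TS-t against WT-t, 1.18 ± 0.57) of 2 in WT-t and 9 in TS-t. None had an edgeR adjusted p below 0.999, and the groups compared overlapped for each.

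In hippocampus HAL1_dup1219 had its lowest median in TS-nt mice. Its CPM ran from 71.6 over 132 to 237 in WT-nt, from 30.7 over 114 to 273 in WT-t, from 25.3 over 87.1 to 130 in TS-nt and from 46.7 over 133 to 217 in TS-t. TS-nt against WT-nt it was at -0.88 ± 0.36 and the interaction at 1.06 ± 0.44 (edgeR adjusted p = 0.998 and 1.00). In cortex the order was not the same, with the highest median in TS-nt (128 CPM, against 75.8 in WT-nt). HAL1_dup1361 had the smallest p for WT-t against WT-nt, at -0.49 ± 0.33 (unadjusted p = 0.135), and the groups overlapped.

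The abundant copies were not called in any comparison of genotype or treatment. HAL1_dup2781, the leading element, had cortex medians of 7504 CPM in WT-nt, 6401 CPM in WT-t, 9017 CPM in TS-nt and 6662 CPM in TS-t mice, and hippocampus medians of 9762, 9637, 8122 and 8780 CPM in that order. Its cortex libraries ran from 495 to 12026 and its hippocampus libraries from 4119 to 22076. TS-nt against WT-nt it was at 0.13 ± 0.36 in cortex and -0.08 ± 0.25 in hippocampus. HAL1b_dup392, HAL1_dup1049, HAL1ME_dup104, HAL1b_dup208 and HAL1_dup3465 were also not called in any of the 12 within-tissue comparisons.

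The tissues themselves differed. Hippocampus was compared with cortex over all 94 libraries, as the mean of the 4 hippocampus groups minus the mean of the 4 cortex groups, with 7551 elements (33 of HAL1) and 132 subfamilies tested. In bulk RNA a difference in the number of cells of a type and in RNA per cell cannot be told apart. Of the subfamilies, HAL1 was higher in hippocampus, at a log2 fold change of 0.33 ± 0.08 (95% interval 0.18 to 0.49, edgeR adjusted p = 0.000118), and HAL1M8 was lower, at -0.13 ± 0.07 (-0.26 to 0.001, adjusted p = 0.0796). HAL1b at 0.14 ± 0.09 (adjusted p = 0.181) and HAL1ME at 0.04 ± 0.06 (adjusted p = 0.522) were not called. Calls in this comparison were common, with 33.3% of subfamilies higher in hippocampus and 35.6% higher in cortex, so that 1 HAL1 subfamily of 4 in each direction is near the background.

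The difference of subfamily HAL1 was smaller without its leading copy. When each subfamily was summed without its most abundant element, HAL1 was at 0.07 (adjusted p = 0.0273), HAL1M8 at -0.16 (adjusted p = 0.0527) and HAL1b at 0.16 (adjusted p = 0.0206), the last now called. In that fit 3 of 4 HAL1 subfamilies were called, against 59.2% of all 130. In the 4 groups taken one by one, subfamily HAL1 was at 0.40 ± 0.17 in WT-nt, 0.35 ± 0.12 in WT-t, 0.25 ± 0.17 in TS-nt and 0.33 ± 0.14 in TS-t mice. It was called in WT-nt, WT-t and TS-t but not in TS-nt mice (edgeR adjusted p = 0.402). The share of L1 counts on subfamily HAL1 was larger in hippocampus than in cortex in 37 of 46 mice. The HAL1M8 call was lost with library totals in place of TMM factors (adjusted p = 0.191), and its share was smaller in hippocampus in 28 of 46 mice. By group HAL1M8 was at -0.16 ± 0.15 in WT-nt, -0.12 ± 0.11 in WT-t, -0.24 ± 0.15 in TS-nt and -0.0098 ± 0.12 in TS-t mice, and was called in none. It was also not called lower in hippocampus among mice with a label starting with 18, 19 or 20 alone.

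Of the 33 HAL1 elements tested between tissues, 6 were called higher in hippocampus and 3 higher in cortex, 27.3% in all. Over all 7551 elements 10.4% were called higher in hippocampus and 12.2% higher in cortex, and MusHAL1 (5 of 24), L1M (23.5%), Lx (23.1%) and L1Md (22.4%) had calls at similar rates, so that the number of HAL1 calls is close to the background. The median log2 fold change was 0.16 over the HAL1 elements and -0.09 over all elements. The L1M median was also above 0, at 0.09, with 324 elements called higher in hippocampus and 139 higher in cortex. Those of MusHAL1 (-0.09), Lx (-0.12) and L1Md (-0.17) were below 0. The balance of directions moved with the scaling: with DESeq2's size factors in edgeR, 4 HAL1 elements were called higher in hippocampus and 5 higher in cortex, with 26.9% of all elements called, the HAL1 median was 0.03 and that of all elements -0.22.

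**Figure D4:**
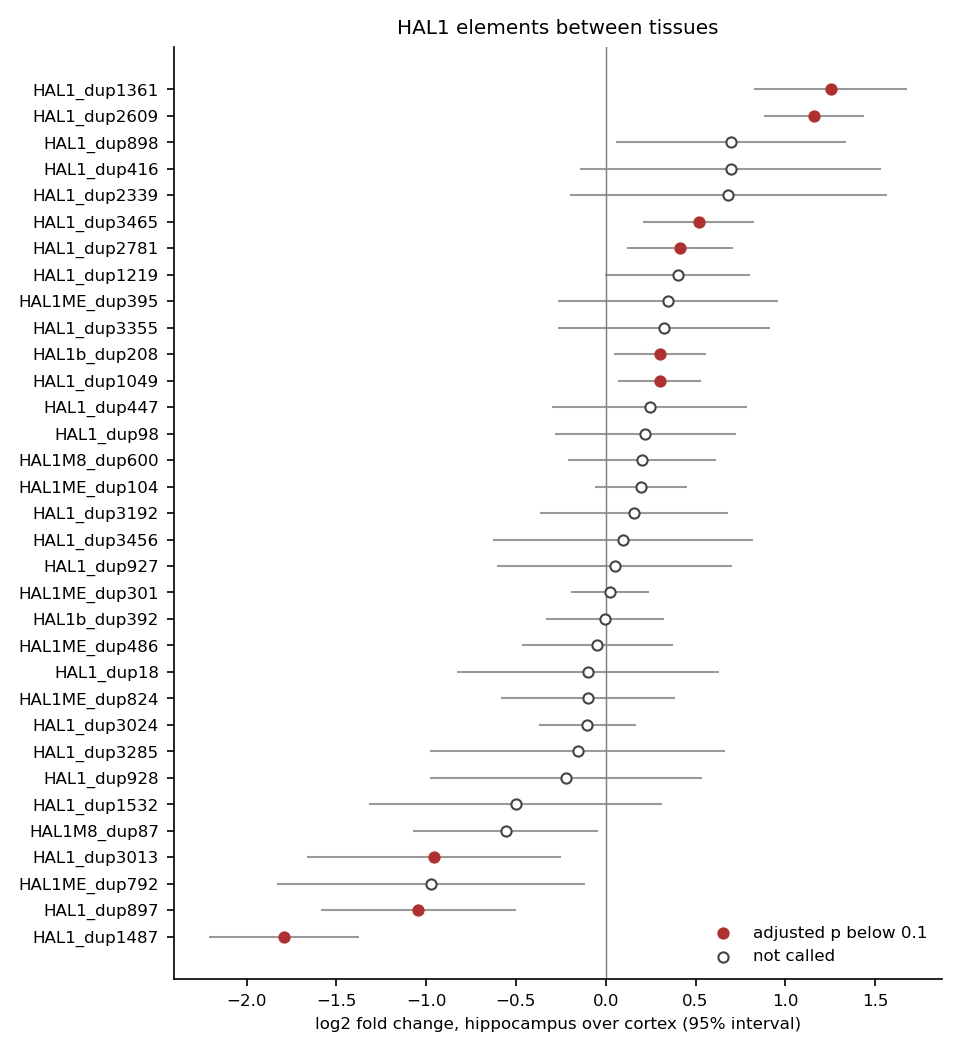
Log2 fold change of hippocampus over cortex (x axis) for the 33 HAL1 elements that passed the filter on low counts (y axis, ordered by fold change). Points are edgeR estimates over 94 libraries, red where the adjusted p is below 0.1, and bars 95% intervals. HAL1_dup1361 and HAL1_dup2609 lie above 1 and HAL1_dup1487 and HAL1_dup897 below -1.

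HAL1_dup1487 had the largest difference of the 33, towards cortex. Its cortex CPM ran from 245 over a median of 372 to 526 in WT-nt, from 203 over 433 to 920 in WT-t, from 210 over 283 to 557 in TS-nt and from 15.2 over 397 to 845 in TS-t. In hippocampus it ran from 12.5 over 104 to 403, from 12.7 over 87.0 to 306, from 56.8 over 78.7 to 177 and from 0 over 104 to 375 in that order. It was higher in cortex in 44 of 46 mice. The log2 fold change of hippocampus over cortex was -1.79 ± 0.21 (edgeR adjusted p = 2.85e-11), and within the groups it lay between -2.12 ± 0.33 in WT-t and -1.55 ± 0.37 in TS-t.

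HAL1_dup2609 showed the opposite pattern in nearly every mouse. Its cortex CPM ran from 87.9 over 144 to 310 in WT-nt, from 111 over 203 to 341 in WT-t, from 108 over 155 to 231 in TS-nt and from 83.9 over 181 to 440 in TS-t. Its hippocampus CPM ran from 228 over 365 to 741, from 222 over 398 to 607, from 215 over 448 to 550 and from 152 over 417 to 1004. The element was higher in hippocampus in 45 of 46 mice, at a log2 fold change of 1.16 ± 0.14 (adjusted p = 6.15e-13 in edgeR). Within the groups the estimate lay between 0.94 ± 0.26 in TS-t and 1.44 ± 0.32 in TS-nt.

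HAL1_dup1361 was higher in hippocampus by 1.25 ± 0.22 (edgeR adjusted p = 5.48e-07) at lower counts. Its cortex medians were 46.2 CPM in WT-nt, 71.3 CPM in WT-t, 69.0 CPM in TS-nt and 71.0 CPM in TS-t mice, and its hippocampus medians 164, 121, 156 and 76.0 CPM in that order. The hippocampus value was the larger in 37 of 46 mice, and the ranges of the tissues overlapped in every group. By group it was at 1.72 ± 0.49 in WT-nt, 0.97 ± 0.34 in WT-t, 1.33 ± 0.48 in TS-nt and 0.99 ± 0.40 in TS-t mice. Of these WT-nt and WT-t were called, and TS-nt and TS-t were not. HAL1_dup2781 was higher in hippocampus by 0.41 ± 0.15 (adjusted p = 0.0383), with a median of 6825 CPM in cortex and 8932 in hippocampus, in 37 of 46 mice. By group HAL1_dup2781 was at 0.46 ± 0.33 in WT-nt, 0.52 ± 0.24 in WT-t, 0.26 ± 0.33 in TS-nt and 0.42 ± 0.27 in TS-t mice, and was called in none. Among the mice whose label starts with 20 alone it was at 0.34, with an adjusted p of 0.180.

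The other 5 calls were smaller or rested on fewer counts. HAL1_dup3465 was higher in hippocampus by 0.52 ± 0.16 (edgeR adjusted p = 0.0100, 36 of 46 mice), HAL1_dup1049 by 0.30 ± 0.12 (adjusted p = 0.0586, 38 of 46 mice) and HAL1b_dup208 by 0.30 ± 0.13 (adjusted p = 0.0912, 29 of 46 mice). Without the 8 cortex libraries that stood apart, 10 of 33 HAL1 elements were called, 5 in each direction, against 29.4% of all elements. HAL1b_dup208 was lost (0.18, adjusted p = 0.165), HAL1ME_dup792 (-0.92, adjusted p = 0.0955) and HAL1M8_dup87 (-0.60, adjusted p = 0.0555) were added, the latter named after its value was seen, and subfamily HAL1 was at 0.28. In mice with a label starting with 20 alone HAL1_dup897 was at -0.63 with an adjusted p of 0.249. With DESeq2's size factors in edgeR HAL1_dup1049 (0.19, adjusted p = 0.163) and HAL1b_dup208 (0.20, adjusted p = 0.233) were no longer called. HAL1_dup897 was higher in cortex, at -1.04 ± 0.28 (edgeR adjusted p = 0.00213, 33 of 46 mice). By group it was at -1.04 ± 0.62 in WT-nt, -1.76 ± 0.45 in WT-t, -1.01 ± 0.62 in TS-nt and -0.37 ± 0.49 in TS-t mice. Of these only WT-t was called. HAL1_dup3013 was also higher in cortex, at -0.96 ± 0.36 (edgeR adjusted p = 0.0469, 30 of 46 mice), with medians of 8 counts per cortex and 3 per hippocampus library.

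**Figure D5:**
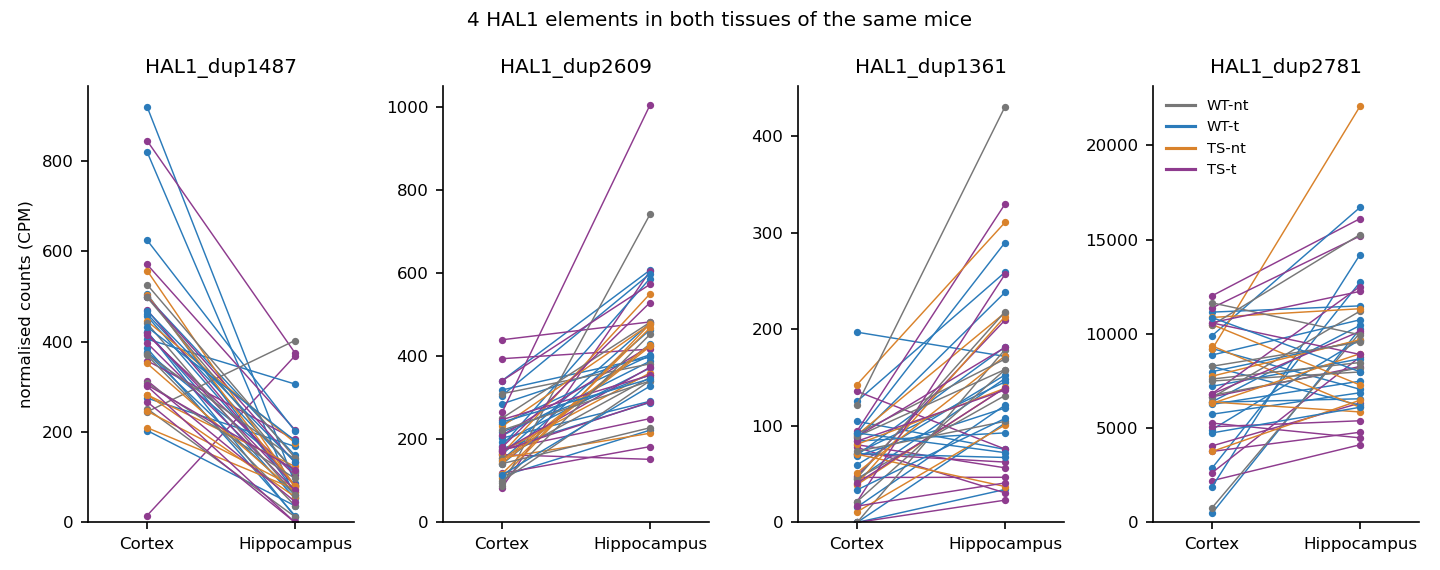
Normalised counts (CPM, y axis, scales differ) of HAL1_dup1487, HAL1_dup2609, HAL1_dup1361 and HAL1_dup2781 in cortex and hippocampus of the 46 mice with both tissues. Each line is 1 mouse, coloured by group. HAL1_dup1487 is lower in hippocampus in 44 mice, and HAL1_dup2609 is higher in 45 and HAL1_dup1361 and HAL1_dup2781 in 37 each.

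Both tissues came from the same mice, and with the mouse as a block in the fit, over 46 mice, 12 of 30 HAL1 elements were called, 8 higher in hippocampus, against 26% of all elements (1921 of 7388) in that fit. HAL1_dup1487 was then at -2.11 and HAL1_dup2609 at 1.08. Calls were added for HAL1ME_dup792 (-0.72, adjusted p = 0.0110), HAL1_dup1219 (0.54, adjusted p = 0.0730) and HAL1_dup898 (0.92, adjusted p = 0.0694), and the block kept the call of HAL1M8 (-0.12, adjusted p = 0.0449). HAL1_dup898 was named after its value was seen. The leading copies of HAL1ME and HAL1b, by contrast, were near 0 between tissues, with HAL1ME_dup301 at 0.02 ± 0.11 and HAL1b_dup392 at -0.0035 ± 0.17 in the fit without the block.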

How the data were processed

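RNA-seq counts per L1 element from 94 libraries (48 cortex, 46 hippocampus) were analysed. Per the submitters' processing notes and the methods of the study, the authors trimmed reads with Trimmomatic 0.38, aligned them to the mouse genome GRCm38 with HISAT2 2.1.0, keeping several alignments of a read, and assigned reads to single elements with Telescope, and the deposited values are raw counts per element, not normalised. Reads that fit several copies were thus shared out by a model, and counts of near-identical copies are uncertain. Gene tables made with StringTie 2.1.3b were not used here.

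Groups were taken from the labels. Counts were tested with edgeR 4.0.16 in R 4.3.3 (filterByExpr by group with at least 10 counts and 15 in total, TMM factors, robust quasi-likelihood fit), within each tissue on the 4 groups and between tissues on all 8, with elements and, separately, sums per subfamily. P-values were adjusted over all features tested by the Benjamini-Hochberg method and called below 0.1. Each share was computed from raw counts, and 95% Wilson intervals cover counting error only. Scripts used Python 3.11.15 with pandas 2.3.3, numpy 2.4.6 and scipy 1.17.1. The within-tissue fits were run on simulated counts of features that passed the filter, which does not cover elements below it. Alternatives were DESeq2 1.42.0 and its size factors, library totals, other filters, a stricter threshold, leaving out single libraries, the 8 cortex libraries that stood apart (over 3 median absolute deviations on the first component), the most abundant element of each subfamily, and mice by the start of their label, the last for tissues chosen after seeing the data.

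Both tissues came from the same animal in 46 mice, so the mouse was a block in a second fit between tissues. Deviations of the tissues of a mouse from their group means had a median correlation of 0.0806 (-0.0046 to 0.462), above 0.1 in 15 of 46 mice, against -0.0066 between different mice of a group. In all 46 mice the correlation lay above the median with other mice of the group. The main fit between tissues did not take this pairing into account. P-values measure the spread between libraries, which are labelled as separate animals within a tissue but not between tissues.

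The elements named were those with the smallest p in each within-tissue comparison, the 10 most abundant tested in each tissue and those called between tissues. The members, lists and comparisons were chosen with earlier results of these data known. A planned permutation test of single elements was left out because the elements were picked by their p.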

Additional observations from a re-analysis of the deposited data

Results flagged for a closer look

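Single libraries lay far from the rest of their group (by the ratio of the gap to the range) in 19 of 104 sets of 4 to 10 libraries tested, 18.3%. The 19 came from 7 libraries. Chance gives about 1 in 20 for separate sets. These sets share libraries and hold nested counts, so that rate does not apply to them. Treated groups are larger than the size limit and were not tested.

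The cortex library of WT-nt mouse 24, the deepest with 1165192 L1 counts, was one of the 8 that stood apart. It gave 9 of the 19, more than any other non-treated library. Its HAL1 elements held 0.372% of L1 counts (95% Wilson interval 0.361% to 0.383%), with the next library of the group at 1.16%. It was also lowest for the shares of HAL1 (0.227%), HAL1ME (0.0602%) and HAL1M8 (0.0252%). Its HAL1_dup2781 was at 781 CPM, HAL1ME_dup301 at 471 CPM, HAL1_dup1049 at 264 CPM and HAL1_dup3465 at 0 CPM, while HAL1_dup3024 was highest of the group at 829 CPM. In the hippocampus library of the same mouse HAL1_dup3024, at 837 CPM, and HAL1_dup1487, at 403 CPM, were the highest of their group.

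In hippocampus, WT-nt mouse 43 had a HAL1 element share of 1.81% (95% Wilson interval 1.76% to 1.86%, next library 1.47%), with the HAL1 subfamily at 1.37%, HAL1_dup2781 at 15268 CPM and HAL1_dup1361 at 430 CPM. TS-nt mouse 23 had HAL1_dup2781 at 22076 CPM in hippocampus (next library 11338 CPM) and HAL1_dup3024 at 968 CPM in cortex. TS-nt mouse 27 showed the most HAL1 elements at equal depth, 628 in cortex (next 347) and 488 in hippocampus (next 287).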

How the results depend on the processing

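The filter on low counts decided whether any HAL1 element was called within a tissue. With all elements of at least 10 counts, and with no filter, the cortex calls were 270 and 350 for TS-nt vs WT-nt, 268 and 404 for TS-t vs WT-nt, 101 and 103 for TS-t vs TS-nt, 278 and 367 for WT-t vs WT-nt, 189 and 330 for TS-t vs WT-t and 158 and 145 for the interaction. In hippocampus, in that order, they were 165 and 0, 181 and 196, 164 and 180, 178 and 132, 161 and 282, and 141 and 123, and between tissues 262 and 212. With at least 10 counts these were calls of 1486 HAL1 elements tested in cortex, 1151 in hippocampus and 1899 between tissues, and with no filter of 2803, 2397 and 3107. With at least 10 counts, the called share of HAL1 elements in cortex was 6.80% to 18.7%, against 6.86% to 25.0% of all elements. In hippocampus it was 12.3% to 15.7%, against 10.6% to 14.5%. With no filter it was 3.67% to 14.4% in cortex, against 2.98% to 18.4% of all elements. In hippocampus it was then 0% to 11.8%, against 0% to 9.27%. Between tissues it was 13.8% against 13.8% with at least 10 counts and 6.82% against 6.45% with no filter. The cause was not tested. Between tissues, mice with a label starting with 18, 19 and 20 gave 1, 6 and 5 calls among 33 HAL1 elements. Over all 7551 elements the calls were 40, 776 and 1133. Each label start also gave 1 call among 4 HAL1 subfamilies, against 37.9%, 50.8% and 56.1% of all subfamilies. Library totals gave 1 call among 4, against 57.6% of all subfamilies. In the main fit 1 HAL1 subfamily had an edgeR adjusted p below 0.05. Without HAL1_dup2781 the mean HAL1 share was 0.769% in WT-nt cortex, 0.768% with treatment, 0.861% in TS-nt and 0.754% in TS-t cortex, and in that order 0.814%, 0.818%, 0.807% and 0.832% in hippocampus, since that element's counts were removed.

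No call changed its direction, but 34 of 61 log2 fold changes took the other sign under some alternative (161 values), none of them called in either fit. With mice whose label starts with 20 alone, cortex HAL1 was at 0.15 for TS-t vs WT-nt, 0.0059 for TS-t vs TS-nt and 0.17 for WT-t vs WT-nt, HAL1M8 at -0.014 and HAL1b at 0.058 for TS-t vs WT-nt, and HAL1ME at 0.014 for TS-t vs WT-t. Hippocampus HAL1 was at 0.021 for TS-nt vs WT-nt, 0.096, 0.075 and 0.10 for TS-t vs WT-nt, TS-nt and WT-t and 0.081 for the interaction, HAL1M8 at 0.19 for WT-t vs WT-nt and -0.055 for TS-t vs WT-t, and HAL1ME at 0.010 for TS-t vs WT-t and, between tissues, -0.011. Without the outlying libraries cortex HAL1b was at -0.0011 for TS-nt vs WT-nt, HAL1M8 at -0.041 for TS-t vs WT-nt, 0.021 for WT-t vs WT-nt and -0.062 for TS-t vs WT-t, HAL1ME at -0.034, -0.11 and 0.072 for the same comparisons, and HAL1 at 0.014 for TS-t vs WT-t and 0.0064 for the interaction. Without its top element, cortex HAL1M8 was at 0.046 for TS-nt vs WT-nt, HAL1 at 0.041 for TS-t vs WT-nt and 0.061 for WT-t vs WT-nt, and HAL1ME at 0.024 for TS-t vs WT-t. Hippocampus HAL1M8 was then at 0.0034 for TS-nt vs WT-nt and 0.023 for WT-t vs WT-nt, HAL1 at 0.0069, 0.017 and 0.046 for TS-t vs WT-nt, TS-nt and WT-t and 0.056 for the interaction, HAL1b at 0.015 for TS-nt vs WT-nt, -0.061, -0.076 and -0.15 for TS-t vs WT-nt, TS-nt and WT-t, 0.088 for WT-t vs WT-nt and -0.16 for the interaction, and HAL1ME between tissues at -0.052.

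With library totals, cortex HAL1M8 was at 0.010 for TS-nt vs WT-nt, -0.017 for TS-t vs WT-nt and -0.027 for TS-t vs TS-nt, HAL1ME at -0.0078, -0.020 and 0.012 for TS-t vs WT-nt, WT-t vs WT-nt and TS-t vs WT-t, and in hippocampus HAL1 at 0.011 for TS-nt vs WT-nt and HAL1M8 at 0.0089 for WT-t vs WT-nt. Cortex HAL1ME for TS-t vs WT-t was at 0.0056 with DESeq2's size factors, 0.0055 with DESeq2 and 0.017 with no filter. Hippocampus HAL1 for TS-nt vs WT-nt was at 0.011 with DESeq2's size factors, 0.012 with DESeq2, 0.018 with no filter and 0.015 with 2 groups in the fit, which put cortex HAL1 for WT-t vs WT-nt at 0.0016, and hippocampus HAL1M8 for WT-t vs WT-nt was at 0.0020 with DESeq2's size factors and 0.0017 with DESeq2.

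Leaving out 1 library at a time, 23 fold changes took the other sign. In cortex HAL1 ranged from -0.14 to 0.023 for TS-t vs WT-nt, from -0.12 to 0.046 for WT-t vs WT-nt and from -0.079 to 0.032 for TS-t vs WT-t, HAL1ME from -0.075 to 0.082, -0.069 to 0.089 and -0.051 to 0.059 in that order, and HAL1M8 from -0.072 to 0.059, -0.11 to 0.032 and -0.018 to 0.085. HAL1M8 also ranged from -0.10 to 0.035 for TS-nt vs WT-nt, from -0.013 to 0.11 for TS-t vs TS-nt and from -0.00047 to 0.14 for the interaction. In hippocampus HAL1 ranged from -0.19 to 0.064 for TS-nt vs WT-nt, from -0.18 to 0.081 (without TS-nt mouse 23) for TS-t vs TS-nt, from -0.11 to 0.0043 for WT-t vs WT-nt and from -0.12 to 0.14 for the interaction, and HAL1ME from -0.025 to 0.055 for TS-t vs WT-nt. HAL1M8 ranged from -0.043 to 0.035 for WT-t vs WT-nt. HAL1b ranged from -0.24 (without TS-t mouse 46) to 0.072 for TS-t vs WT-nt, from -0.12 to 0.18 for TS-t vs TS-nt, from -0.060 to 0.038 for WT-t vs WT-nt, from -0.22 to 0.087 for TS-t vs WT-t and from -0.11 to 0.20 for the interaction.

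Leaving out each of the 94 libraries gave 0 HAL1 subfamily calls within tissues, with a smallest edgeR adjusted p of 0.129. With the mouse as a replicate block, 12 HAL1 elements and 2 subfamilies were called between tissues. No paired analysis was possible within a tissue because each mouse belongs to 1 group. Elements below the filter had too few counts for a statement on each.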
